A study of Mus musculus with 48 samples.

Results

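The regions described here lie in the skeletal muscle myosin heavy chain cluster of the mouse, a run of 6 genes on chromosome 11 that holds Myh3, Myh2, Myh1, Myh4, Myh8 and Myh13 in that order. A region is a stretch of genome at which the authors called a peak of captured methylated DNA. The members were chosen by position, as every such region that overlaps one of the 6 genes or lies within 5 kb of one, and they number 24 of 95882 regions in all. The cluster itself was selected because one region in Myh2 was called lower in GermFree than in ConvR colon, so the colon comparison of the mouse models is given below as a description, with no test. Of the 24 members, 23 overlap a gene, and the other lies 2545 bp beyond Myh3.

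Myosin heavy chains are the motor proteins of muscle, and each muscle fibre type is marked by the heavy chain it makes. Within the cluster, Myh3 encodes the embryonic chain and Myh8 the perinatal chain, which serve developing and regenerating muscle. Myh2, Myh1 and Myh4 encode the fast adult chains IIa, IIx and IIb, and Myh13 encodes the chain of extraocular and laryngeal muscle. The muscle of the gut wall is smooth muscle and uses another heavy chain gene, Myh11, so the cluster is not known for a role there. Methylation of cytosine in CG dinucleotides is common within the bodies of genes and is often low at start sites that are rich in CG.

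DNA was taken from 4 sections of the intestine (duodenum, jejunum, ileum and colon) of 7 GermFree mice, which are raised without microbes, and 5 ConvR mice, which the design calls conventionalized. Each mouse gave 1 library per section, so there are 48 libraries and 12 per section, and the replicate in each comparison is the mouse. Sheared DNA was enriched with a methyl-CpG-binding domain protein and sequenced, so the read count of a region rises with the amount of its DNA that carries CG methylation. The sample labels give ConvR alone, and how or when these mice gained their microbes was not stated. The strain, sex, age and diet of the mice were not stated either. The labels name the section and not the kind of cell or layer of the wall. A shift in the mix of cells and a shift in methylation within 1 kind of cell therefore cannot be told apart.

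Levels below are in CPM, the reads of a region scaled to a common library total, with factors from the trimmed mean of M values (TMM). The libraries held 1007560 to 3033782 reads in regions, and the median count of a member over the 48 libraries ran from 8 to 64 reads. Counts of that size carry a large counting error. The 4 libraries with the lowest median correlation to their own group came from ConvR mice 1 and 3, with the lowest of all (0.782) in ConvR ileum mouse 1. Without both mice, an alternative chosen after the data were seen, 0 members were called outside the colon comparison of the models, and the direction in Myh2 that chose the cluster was the same.

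The 6 genes span 293315 bp of mm10 (GRCm38), from chr11:67078273 to 67371587, and all are read in the same direction. Regions covered 48% of Myh3, 27.2% of Myh2, 46.5% of Myh1, 55.1% of Myh4, 39.4% of Myh8 and 21.8% of Myh13. The members lay almost entirely inside the genes and away from their starts. Of the 6 windows that run from 250 bases before to 50 bases after a start site, 1 was touched by a region, that of Myh2, against 8.57% of 32851 such windows in RefSeq. The nearest approach elsewhere was in Myh13, where a region begins 14 bp past the window.

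The start windows of Myh2, Myh1, Myh4 and Myh13 are shown because capture depends on CG dinucleotides, which are in capitals. They are taken from RefSeq on GRCm38.p6, plus strand, at chr11:67170777-67171076, chr11:67199852-67200151, chr11:67237562-67237861 and chr11:67326853-67327152.
Myh2: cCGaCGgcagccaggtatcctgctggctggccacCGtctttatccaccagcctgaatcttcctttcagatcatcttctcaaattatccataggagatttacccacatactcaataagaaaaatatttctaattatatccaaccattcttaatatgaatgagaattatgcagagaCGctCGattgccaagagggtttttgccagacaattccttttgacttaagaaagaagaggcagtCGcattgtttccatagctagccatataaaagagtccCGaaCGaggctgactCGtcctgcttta
Myh1: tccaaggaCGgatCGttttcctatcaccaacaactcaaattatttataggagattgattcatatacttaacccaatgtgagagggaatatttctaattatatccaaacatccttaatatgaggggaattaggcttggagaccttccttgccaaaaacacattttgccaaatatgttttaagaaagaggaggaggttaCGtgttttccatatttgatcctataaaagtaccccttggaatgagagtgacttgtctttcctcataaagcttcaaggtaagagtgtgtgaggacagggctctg
Myh4: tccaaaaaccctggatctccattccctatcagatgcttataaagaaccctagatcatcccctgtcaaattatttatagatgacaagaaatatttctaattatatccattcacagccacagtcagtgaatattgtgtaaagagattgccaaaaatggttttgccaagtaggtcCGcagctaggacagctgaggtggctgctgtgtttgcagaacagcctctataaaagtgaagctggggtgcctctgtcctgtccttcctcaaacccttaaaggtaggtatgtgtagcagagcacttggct
Myh13: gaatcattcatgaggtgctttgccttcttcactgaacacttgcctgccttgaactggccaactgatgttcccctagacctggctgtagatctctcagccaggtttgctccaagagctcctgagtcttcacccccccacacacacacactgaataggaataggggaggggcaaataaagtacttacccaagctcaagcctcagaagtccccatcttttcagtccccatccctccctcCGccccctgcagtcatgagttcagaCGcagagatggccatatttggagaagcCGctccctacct
The Myh2 window, the one that a region touches, has 9 CG dinucleotides, more than Myh8 with 6, Myh3 with 4, Myh1 and Myh13 with 3 each and Myh4 with 1. The median over all RefSeq windows is 7, with quartiles of 3 and 20, so none of the 6 is a CG-rich start. A run of 14 bases, TTCTAATTATATCC, stands on the plus strand of the Myh2, Myh1, Myh4 and Myh8 windows. Counted from the start site it begins at base −125, −160, −158 and −54 in that order. On either strand it is found in 4 of the 32851 windows, which are these same 4 (0.0122%). The match describes the letters of the windows and bears on no value measured here.

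The level per kb was alike at most members, with a median below that of all regions. Regions of like width were not compared, so that median is not read as low capture. The members were wide, with a median of 2673 bp against 1208 bp over all regions. Their mean level per kb ran from 4.54 to 8.57 CPM, with a median of 5.09 against 6.22 over all regions, whose quartiles were 5.18 and 7.95. The 2 members above the upper quartile were also the narrowest. They are Myh8 region 3 (chr11:67294169-67294652, 8.13 CPM per kb) and Myh13 region 4 (chr11:67364618-67365241, 8.57 CPM per kb). Regions are numbered here along each gene in the order of the chromosome.

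Summed by gene, the levels per kb over the 48 libraries were 5.31 ± 0.60 CPM for Myh13, 5.18 ± 0.46 for Myh4, 5.06 ± 0.49 for Myh3, 5.06 ± 0.60 for Myh2, 5.01 ± 0.49 for Myh1 and 4.80 ± 0.49 for Myh8 (SD). No neighbours in that order differed by more than the SD between libraries. The embryonic and perinatal genes stood on either side of fast adult genes in that order. Summed over all 24 members, the level was 354 ± 15.5 CPM (SD, 48 libraries) and ran from 326 to 387 CPM. In the duodenum the sum was 349 ± 14.6 CPM in GermFree and 362 ± 11.4 in ConvR mice, and in the jejunum 347 ± 8.76 and 347 ± 23.7. In the ileum it was 355 ± 12.9 and 363 ± 18.5 CPM, and in the colon 355 ± 12.5 and 361 ± 21.2 (SD, n = 7 and n = 5 mice). In every section the means of the models differed by less than the larger of their SDs.

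**Figure D1:**
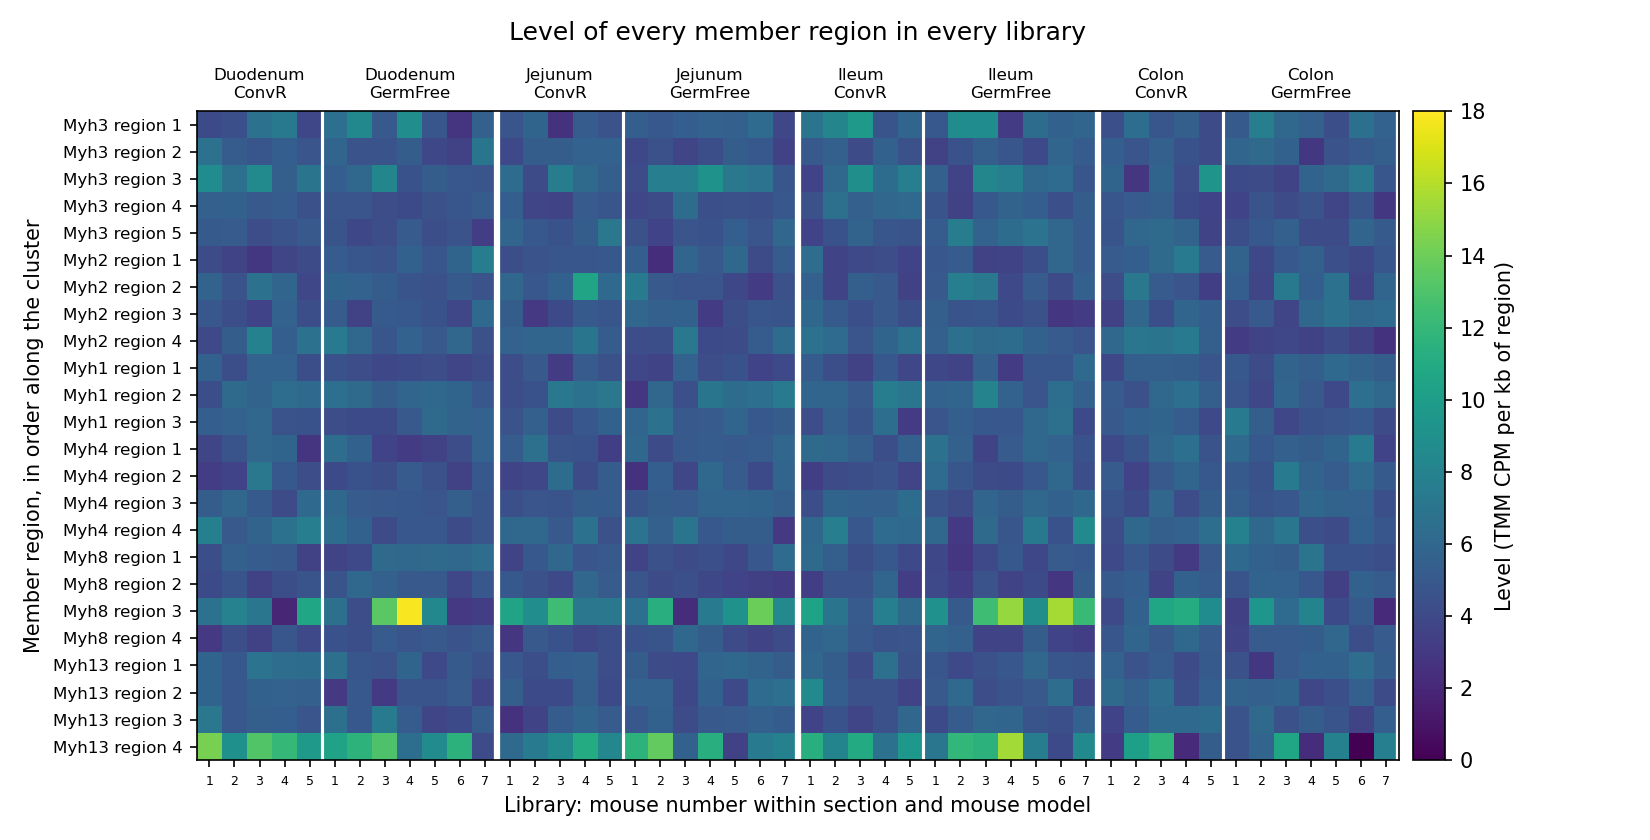
Level of each member region (rows, in order along the cluster) in each of the 48 libraries (columns, grouped by section and mouse model, with the mouse number below), as TMM CPM per kb on a linear colour scale from 0. Most cells lie near the median of 5.09, the narrow Myh8 region 3 and Myh13 region 4 vary most, and Myh2 region 4 is dark in all 7 GermFree colon libraries.

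The region that chose the cluster, Myh2 region 4 (chr11:67192712-67194956, 2245 bp), lies inside the gene 21685 to 23929 bp past its start, 86.1% of the way along it. In the colon its level was 13.6, 15.9, 15.5, 16.8 and 12.3 CPM in ConvR mice 1 to 5. In the 7 GermFree mice it ran from 5.92 to 9.36 CPM with a median of 8.04. The groups did not overlap: the highest GermFree mouse was below the lowest ConvR mouse. The means were 14.8 ± 1.85 and 7.86 ± 1.13 CPM (SD, n = 5 and n = 7 mice). The counts behind them were 21 to 36 reads in ConvR and 11 to 19 in GermFree libraries. The log2 difference was −0.91 (SE 0.18), and it ran from −0.97 to −0.84 over 20 alternative settings. These values chose the cluster and support nothing further.

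Among the 22 members that passed the filter on low counts in the colon, Myh2 region 4 was the 1 called, and 0.542% of all regions tested were called there, 0.0283% as lower in GermFree mice. The 2 members that did not pass were the narrow Myh8 region 3 and Myh13 region 4. Of the 23 members with a mean of at least 5 CPM, Myh2 region 4 was also the only one whose GermFree mice all lay below the ConvR mice, against 0.165% of 66583 regions at that level. Its call chose the cluster and its lack of overlap rests on the same libraries, so neither is read against its share of all regions. No member had all its GermFree mice above the ConvR mice, against 0.409% of those regions. Its neighbours stood elsewhere. Myh2 region 3, the next one towards the start, had a colon level of 16.3 ± 3.36 CPM in GermFree and 14.9 ± 3.18 in ConvR mice, and Myh1 region 1, the next region on the far side, had 30.9 ± 3.82 and 28.8 ± 3.88. The other 21 members had colon log2 differences from −0.29 to 0.32, and the median of the 22 was 0.008 against −0.0042 over all regions.

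**Figure D2:**
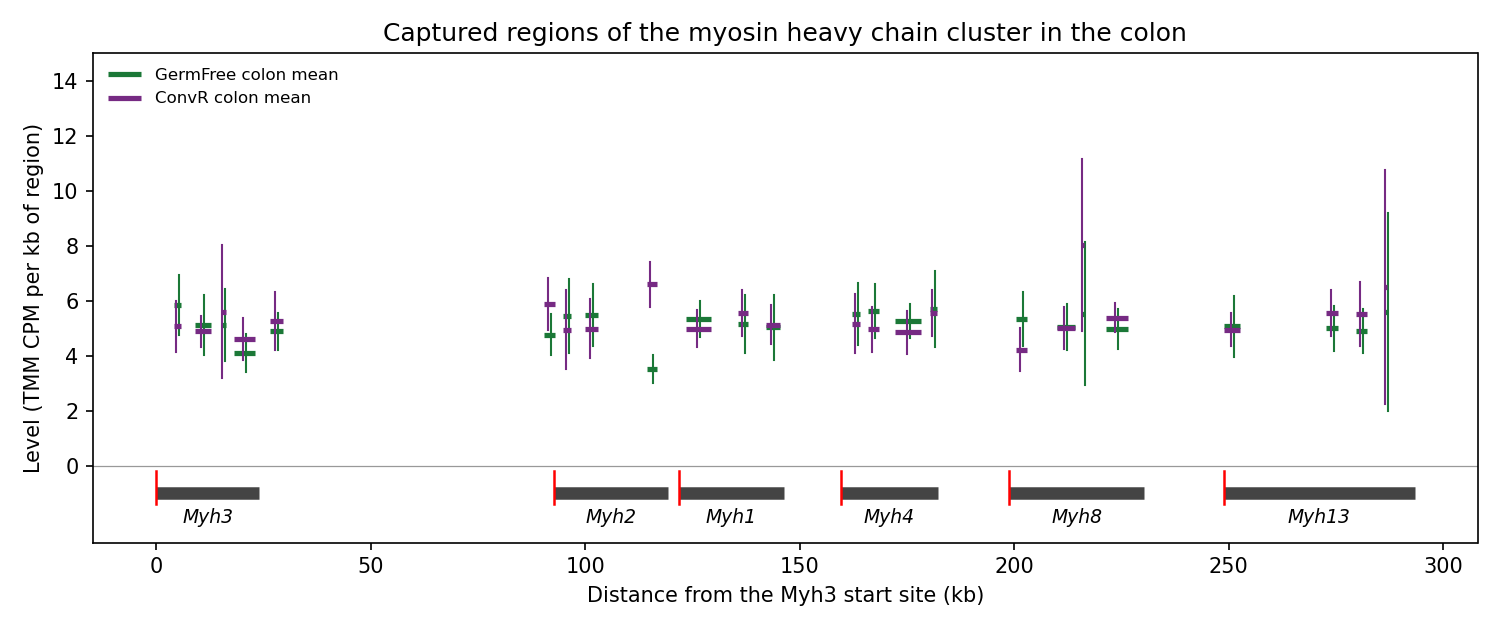
Mean colon level of each member region (horizontal bars, drawn to the width of the region, with vertical lines of ± 1 SD over 7 GermFree or 5 ConvR mice), as TMM CPM per kb, against distance from the Myh3 start site. Grey boxes are the genes and red ticks their start sites. The bars of the models overlap within their SD along the cluster except at Myh2 region 4, near the right end of the Myh2 box.

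The other 3 sections did not choose the cluster, and there the same region gave no difference that passed the test. In the duodenum Myh2 region 4 stood at 8.93, 12, 17.7, 12.2 and 15.1 CPM in ConvR mice 1 to 5 and from 9.97 to 16.6 CPM with a median of 12.7 in the 7 GermFree mice. In the jejunum it stood at 12.7, 13.2, 13.2, 15.8 and 11.7 CPM in ConvR and from 9.06 to 16.2 CPM with a median of 9.77 in GermFree mice. In the ileum it stood at 15.2, 14.2, 10.6, 13 and 15 CPM in ConvR and from 10.7 to 14.9 CPM with a median of 12.6 in GermFree mice. In all 3 sections the groups overlapped. In the jejunum 4 of 7 GermFree mice were below every ConvR mouse, and the other 3 lay within the ConvR range or above it.

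By edgeR's quasi-likelihood test, adjusted over all regions, the log2 difference of Myh2 region 4 (GermFree against ConvR) was −0.073 in the duodenum (95% interval −0.40 to 0.26, adjusted p = 0.968). It was −0.23 in the jejunum (−0.56 to 0.11, adjusted p = 0.972) and −0.068 in the ileum (−0.39 to 0.26, adjusted p = 1.0). With the counts of the 3 small intestine sections summed per mouse it was −0.12 (−0.30 to 0.064, adjusted p = 0.994). Whether the difference itself varies between sections was not tested, since the colon values chose the region.

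Within single mice the contrast was of the same kind. In GermFree mice the colon level of Myh2 region 4 was below the mean of the animal's own small intestine sections in 7 of 7, by −4.45 ± 1.39 CPM on average (SD, n = 7). In ConvR mice it was above it in 4 of 5, with a mean difference of 1.43 ± 1.91 CPM (SD, n = 5). These are descriptions too, because they use the colon libraries. A code in the sample titles, whose meaning is not stated, is shared by 1 GermFree and 1 ConvR mouse in 5 cases. The GermFree mouse was lower at Myh2 region 4 in 2 of 5 such pairs in the duodenum, 3 of 5 in the jejunum and 2 of 5 in the ileum.

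**Figure D3:**
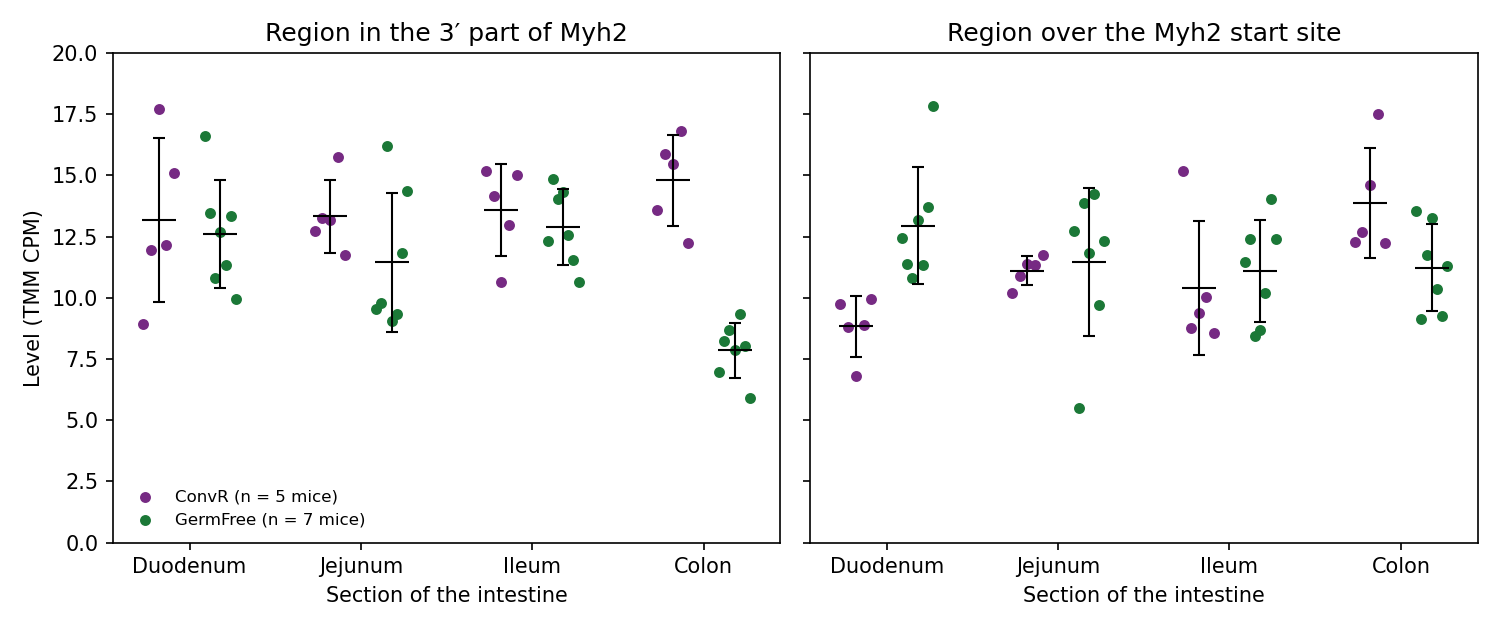
Level (TMM CPM) of Myh2 region 4 (left) and of Myh2 region 1, over the start site (right), in each mouse by section; points are mice, horizontal lines means and bars ± 1 SD. On the left the GermFree colon mice (5.92 to 9.36) lie below all ConvR colon mice, and on the right the GermFree duodenum mice (10.8 to 17.8) lie above all ConvR duodenum mice.

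Between the mouse models, no member passed edgeR's test in any small intestine section, with the other muscle genes of the cluster included. In the duodenum 0 of 23 members tested were called, against 0.463% of all regions, and 4 of 23 had an unadjusted p under 0.05 against 6.99%. In the jejunum 0 of 23 were called against 0.343%, with 2 of 23 under 0.05 unadjusted against 5.36%. In the ileum 0 of 24 were called against 0.365%, with 2 of 24 under 0.05 unadjusted against 5.12%. One of those 2, Myh8 region 3, passed the count filter there mostly through its GermFree libraries, so the filter favoured a higher level in them. With the 3 sections summed per mouse 0 of 24 were called against 0.433%, with 1 of 24 under 0.05 unadjusted against 5.17%. DESeq2 also called 0 members in each of these 4 comparisons, against 0.293%, 0.18%, 0.192% and 0.315% of all regions. Counts of 0 are close to those shares. The shares include the sex chromosomes, while the members are on chromosome 11. With autosomes alone edgeR called fewer: 195 of 74154 regions in the duodenum, 122 of 80622 in the jejunum and 158 of 84215 in the ileum. The reason for that drop was not tested.

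The median log2 difference of the members was −0.042 in the duodenum, 0.049 in the jejunum, −0.062 in the ileum and −0.017 in the sum, against −0.0028, −0.003, 0.0009 and −0.0009 over all regions. In the sum, the 95% interval of 23 of 24 members lay within 0.5 either side of 0 on the log2 scale. In single sections it did so for 14 of 23 members in the duodenum, 14 of 23 in the jejunum and 11 of 24 in the ileum. At the other members the interval reaches beyond 0.5 on one side or both, so a difference of that size is not excluded there.

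Among the fast adult genes, the member with the largest difference outside the colon was Myh2 region 1 (chr11:67168801-67171161), which covers the start site. In the duodenum it stood at 9.74, 8.79, 6.81, 8.88 and 9.95 CPM in ConvR mice 1 to 5 and from 10.8 to 17.8 CPM with a median of 12.5 in GermFree mice. Every GermFree mouse lay above every ConvR mouse, which is so for 0.345% of the 66583 regions at this level and for 1 of the 23 members. The log2 difference was 0.53 (SE 0.18), with an adjusted p of 0.363 by edgeR's quasi-likelihood test, so it did not pass. In the jejunum its levels were 11.1 ± 0.59 CPM in ConvR and 11.5 ± 3.02 in GermFree mice, and in the ileum 10.4 ± 2.74 and 11.1 ± 2.09 (SD). Summed over the 3 sections the log2 difference was 0.24 (SE 0.10, adjusted p = 0.876 by edgeR).

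In the colon the same start region stood the other way, at 12.3, 12.7, 14.6, 17.5 and 12.3 CPM in ConvR mice 1 to 5 and from 9.14 to 13.6 CPM with a median of 11.3 in GermFree mice, and the groups overlapped. Its colon level was above the mean of the small intestine sections in 5 of 5 ConvR mice (3.75 ± 2.70 CPM, SD) and in 3 of 7 GermFree mice (−0.60 ± 2.06 CPM). The region over the start and the region near the far end of Myh2 therefore shared the direction of their colon difference and not its size, and their levels over the 48 libraries were almost unrelated (r = 0.023).

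Other members of the adult genes reached an unadjusted p under 0.05 and no more. Myh2 region 2 (chr11:67173205-67175034) in the jejunum stood at 10.8, 8.96, 10.2, 19.2 and 11.3 CPM in ConvR mice 1 to 5 and from 5.91 to 13.7 CPM with a median of 8.66 in GermFree mice (log2 −0.47, SE 0.19, adjusted p = 0.813 by edgeR). ConvR mouse 4 was far above the others there. Myh1 region 1 (chr11:67201826-67207619), within 5 kb of Myh2 as well, stood in the duodenum at 32.5, 25, 32.7, 32.7 and 25 CPM in ConvR mice and from 21.6 to 26.3 CPM with a median of 24.1 in GermFree mice (log2 −0.27, SE 0.12, adjusted p = 0.655 by edgeR). Myh4 region 4 (chr11:67258545-67260211) stood there at 11 ± 2.01 CPM in ConvR and 8.28 ± 1.31 in GermFree mice (log2 −0.41, SE 0.19, adjusted p = 0.666 by edgeR). The groups overlapped in each case. The remaining members of Myh1 and Myh4 had log2 differences between −0.087 and 0.25 in every small intestine section.

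For the developmental genes the picture was alike. Myh8 region 2 (chr11:67288202-67292412), of the perinatal gene, stood in the jejunum at 21.0, 18.7, 16.8, 25.1 and 21.7 CPM in ConvR mice and from 13.1 to 20 CPM with a median of 16.5 in GermFree mice (log2 −0.34, SE 0.14, adjusted p = 0.813 by edgeR). In the duodenum the same region was on the other side, at 21.1 ± 2.84 CPM in GermFree and 17.9 ± 1.96 in ConvR mice. Myh8 region 3, the narrow one, stood in the ileum at 5.06, 3.37, 2.5, 3.76 and 3 CPM in ConvR mice and from 2.48 to 7.52 CPM with a median of 5.91 in GermFree mice (log2 0.72, SE 0.29). With 2 to 22 reads per library over its 484 bp it had the lowest median count of the members. It did not pass the filter when the other sections were fitted alone. In the ileum 5 of 7 GermFree libraries and 1 of 5 ConvR libraries reached the filter's level of 4.38 CPM, so its difference there is a description.

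Myh3 region 5 (chr11:67104836-67107881), the member that lies beyond the embryonic gene, stood in the ileum at 11.1, 13.8, 17.5, 14.6 and 14.1 CPM in ConvR mice and from 15.9 to 23.1 CPM with a median of 18.1 in GermFree mice (log2 0.36, SE 0.15, adjusted p = 0.884 by edgeR). ConvR mouse 3 alone lay within the GermFree range. In the colon it stood at 14.9 ± 2.06 CPM in GermFree and 16 ± 3.18 in ConvR mice. It is the member nearest to the 5 kb limit. The regions just outside that limit, 5302 and 5899 bp from the genes, had colon levels of 3.94 ± 1.37 and 5.49 ± 1.44 CPM in GermFree and 4.78 ± 0.49 and 6.91 ± 2.74 in ConvR mice. The 4 regions inside Myh3 had log2 differences between −0.34 and 0.23 in the small intestine sections, and none had an unadjusted p under 0.05.

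In Myh13, region 2 (chr11:67351002-67353809) in the duodenum stood at 16.2, 13.7, 15.7, 15.9 and 15.4 CPM in ConvR mice and from 8.30 to 14.4 CPM with a median of 13.1 in GermFree mice (log2 −0.36, SE 0.16, adjusted p = 0.646 by edgeR). ConvR mouse 2 and GermFree mice 2 and 6 made the groups overlap. In the jejunum the region stood the other way, at 12.9 ± 2.17 CPM in ConvR and 15.1 ± 2.96 in GermFree mice. Across the 3 sections no member had an unadjusted p under 0.05 more than once.

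**Figure D4:**
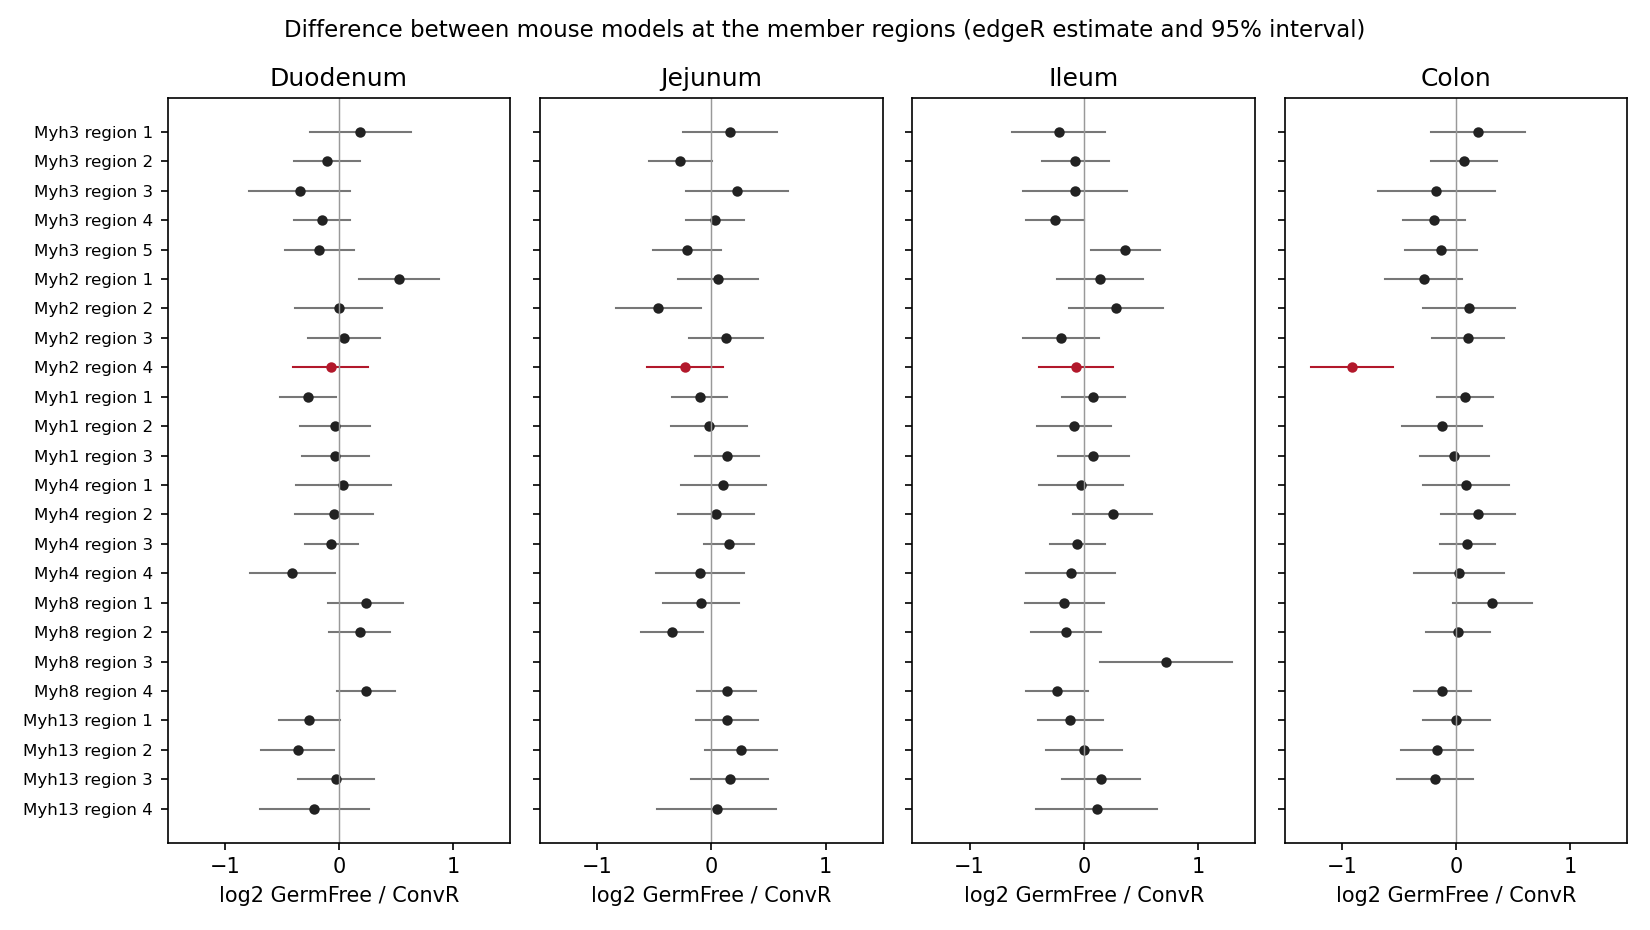
log2 difference between GermFree and ConvR mice (points) with its 95% interval from edgeR (lines) for each member region in each section; Myh2 region 4 is in red, and a missing point is a region that did not pass the filter on low counts. The colon panel is a description, because its value at Myh2 region 4 (−0.91) chose the cluster; in the other panels the points scatter about 0.

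Between sections, with both models averaged and no term for the mouse, no member was called in the main fit. In the contrast of the colon with the mean of duodenum, jejunum and ileum, 0 of 24 members were called by edgeR. Over all regions 2.39% were called (1.79% higher and 0.607% lower in the colon). An unadjusted p under 0.05 was reached by 8 of 24 members, a larger share than the 15% of all regions. The members are wider (median 2673 against 1208 bp) and regions of like width were not compared, so that share is not read as a result about the cluster. DESeq2 called 0 as well, against 1.43% of all regions, and gave no adjusted p for 3 members, Myh13 region 4 among them. The median log2 difference was 0.005 against −0.001 over all regions, and the 95% interval of 21 of 24 members lay within 0.5 either side of 0. One of the 8 is Myh2 region 4 (−0.25, SE 0.098), whose colon libraries chose it. That value averages −0.65 in GermFree mice and 0.13 in ConvR mice fitted alone.

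Myh13 region 4 came nearest to a call, with a log2 difference of −0.55 (SE 0.18, adjusted p = 0.0822 by edgeR). It stood at 1.94, 6.35, 7.31, 1.35 and 3.30 CPM in the colon of ConvR mice 1 to 5 and from 0 to 6.63 CPM with a median of 3.66 in that of GermFree mice. The section means elsewhere ran from 5.20 ± 1.13 CPM (ConvR jejunum) to 7.26 ± 1.39 CPM (ConvR duodenum). One GermFree colon library, of mouse 6, had no read in this 624 bp region, which allows up to 1.85 CPM (3 reads of that library). The colon was below the animal's own small intestine mean in 4 of 7 GermFree and 3 of 5 ConvR mice. The region passed when ConvR mouse 3 (−0.69, adjusted p = 0.0258), GermFree mouse 3 (−0.65, adjusted p = 0.0376) or GermFree mouse 5 (−0.64, adjusted p = 0.0496 by edgeR) was left out. In those fits it was the 1 member called, against 4.04%, 2.72% and 1.99% of all regions in that order.

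Myh1 region 1 lay on the other side, with a log2 difference of 0.22 (SE 0.073, adjusted p = 0.091 by edgeR). It stood at 22.6, 31.7, 31.4, 30.9 and 27.3 CPM in the colon of ConvR mice 1 to 5 and from 23.8 to 35.5 CPM with a median of 31.4 in that of GermFree mice, above the animal's own small intestine mean in 7 of 7 GermFree and 4 of 5 ConvR mice. With the mouse as a block in the fit, both regions passed: Myh13 region 4 at −0.59 (adjusted p = 0.026) and Myh1 region 1 at 0.23 (adjusted p = 0.0383 by edgeR). That is 2 of 24 members, against 3.78% of all regions called by the same fit. Of the 2, Myh13 region 4 entered the fit mainly through the sections where it is higher. Without ConvR mice 1 and 3 the blocked fit called 0 members against 3.87% of all regions, and the fit without the block 0 against 3.16%. In GermFree mice alone 2 of 24 were called, Myh2 region 4 and Myh1 region 1, against 2.92%. The call at Myh2 region 4 is no test, because its colon libraries chose it. Myh8 region 4 (0.19, adjusted p = 0.178) and Myh3 region 4 (−0.18, adjusted p = 0.201 by edgeR), in the body of their genes, were next after these and Myh2 region 4.

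**Figure D5:**
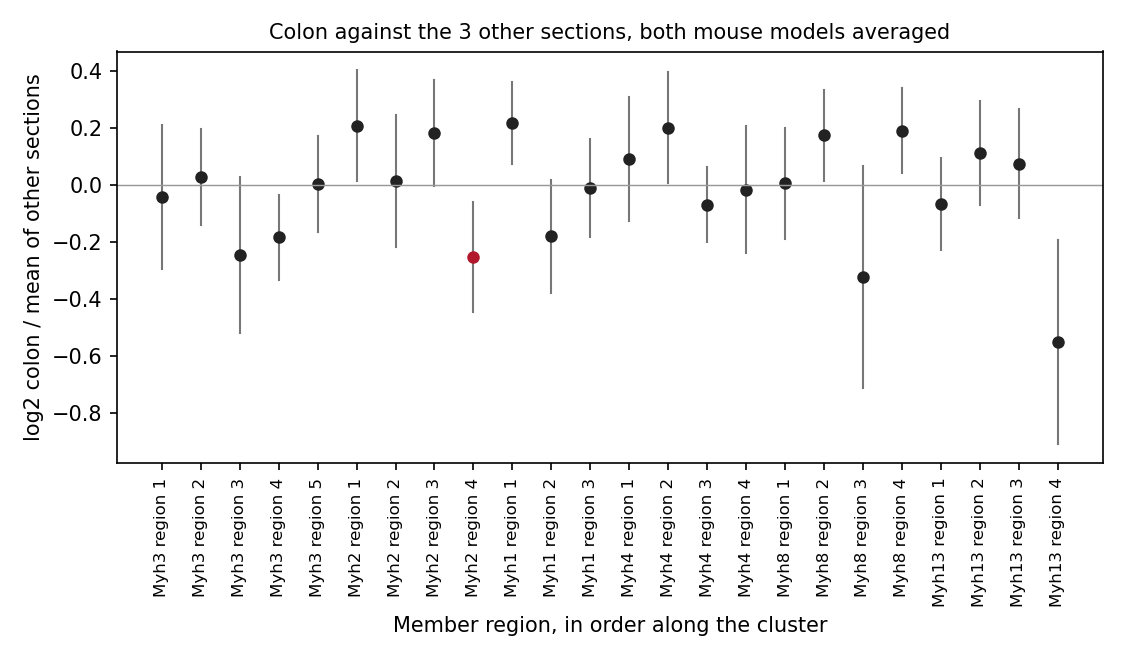
log2 difference between the colon and the mean of the other 3 sections, averaged over both mouse models (points), with its 95% interval from edgeR (lines), for the 24 member regions in order; Myh2 region 4, whose colon libraries chose it, is in red. Points lie between −0.55 (Myh13 region 4) and 0.22 (Myh1 region 1), and 0 of 24 were called in this fit, which has no term for the mouse. With the mouse as a block, Myh13 region 4 and Myh1 region 1 were called. Myh13 region 4 passed the count filter mainly through the other 3 sections.

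Along the small intestine there was still less. Ileum against duodenum gave 0 of 24 members called, against 0.00209% of all regions, and 1 with an unadjusted p under 0.05 against 4.75%. Jejunum against duodenum gave 0 of 24 called, against 0% of all regions, and 0 under 0.05 unadjusted against 5.41%. DESeq2 called 0 members and 0% of all regions in both. The one unadjusted value, Myh3 region 5 in ileum against duodenum, was 0.22 (SE 0.10, adjusted p = 1.0 by edgeR).

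Other muscle genes were read from lists of genes outside the cluster. In the contrast of GermFree with ConvR mice, regions of skeletal muscle sarcomere and regulator genes (228 regions at 48 genes, of which 189, 206 and 204 passed the filter in the duodenum, jejunum and ileum) gave 0 calls by edgeR in those sections and in their sum. Over all regions 0.463%, 0.343%, 0.365% and 0.433% were called in that order. At an unadjusted p under 0.05 the list gave 14, 7, 7 and 9, against 6.99%, 5.36%, 5.12% and 5.17% of all regions. The 59 regions of 12 smooth muscle genes also gave 0 calls. Unadjusted, 4 of 51, 1 of 51, 2 of 53 and 2 of 59 tested were under 0.05, beside the same shares of all regions. Of 57 regions at the 8 other myosin heavy chain genes, 1 fell, in the duodenum: a region of Myh9, which encodes a non-muscle heavy chain (chr15:77773273-77775731). It stood at 12 ± 3.23 CPM in GermFree and 18.9 ± 2.89 in ConvR duodenum (SD; log2 −0.64, SE 0.16, adjusted p = 0.0297 by edgeR), with GermFree mice from 8.11 to 16 and ConvR mice from 15.4 to 22.5 CPM. Its colon levels were 13.4 ± 2.69 and 13.4 ± 3.54 CPM. The call is 1 of 49 regions of that list tested there, against 0.463% of all regions. It held in 11 of 21 alternatives: it was lost with DESeq2 (adjusted p = 0.262), with the title code as a block (adjusted p = 0.116 by edgeR), without ConvR mice 1 and 3 (adjusted p = 0.102), and without any 1 of ConvR mice 3, 4 and 5 or GermFree mice 1, 3, 4 and 5 (adjusted p up to 0.126).

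In the colon against the other sections, 5 of 228 regions of the skeletal muscle list were called, 2 higher and 3 lower, against 2.39% of all regions. Lower were a region of Mb, the myoglobin gene (−0.57, SE 0.15, adjusted p = 0.015 by edgeR), and 2 regions of Ttn, the titin gene (−0.24, SE 0.070, and −0.24, SE 0.071). Higher were regions of Pvalb, the parvalbumin gene (0.35, SE 0.094), and Pax3, a transcription factor gene of muscle precursors (0.34, SE 0.096). Of the other myosin heavy chain genes 1 of 57 regions was lower, again in Myh9 (chr15:77762769-77771393, log2 −0.24, SE 0.068, adjusted p = 0.0358 by edgeR). Of the smooth muscle list 0 of 59 were called, with 4 under 0.05 unadjusted against 15% of all regions. None of these calls held without each mouse in turn. The call at Mb held in 10 of 12 such fits and was lost without ConvR mouse 4 or 5 (adjusted p up to 0.0587 by edgeR), and the others held in 3 to 7 of 12. Without ConvR mice 1 and 3 the calls at Pvalb (adjusted p = 0.107) and at the first Ttn region (adjusted p = 0.0877 by edgeR) were lost. The medians were −0.027, −0.049 and −0.064 for the 3 lists, against −0.001 over all regions and 0.005 for the members.

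The stretch of 500 kb on either side of the cluster held 42 regions that are no members. By edgeR 0 were called between the mouse models in the duodenum, jejunum and ileum, against 0.463%, 0.343% and 0.365% of all regions. An unadjusted p under 0.05 was reached by 2 of 28, 0 of 36 and 1 of 36 tested, against 6.99%, 5.36% and 5.12%. The median log2 differences of these flank regions were 0.074 in the duodenum, 0.004 in the jejunum and 0.009 in the ileum. In the colon 0 of the 26 tested were called, against 0.542% of all regions, and a count of 0 is close to that share. In the colon against the other sections 1 of 42 was called, against 2.39% of all regions. It lies within Gas7 (chr11:67643183-67645096, log2 0.37, SE 0.11, adjusted p = 0.0489 by edgeR). That call held in 3 of 22 alternatives and in 1 of 12 fits without 1 mouse (adjusted p up to 0.187).

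The levels of Myh2 region 4 over the 48 libraries were compared with those of 66534 regions of at least 5 CPM outside the cluster and its flanks, as a description. The libraries share mice, sections and mouse models, and the colon difference enters each correlation. The 5 regions most like it lay at Prox1 on chromosome 1 (r = 0.632), at Klhl2 on chromosome 8 (0.619), at Gcn1 on chromosome 5 (0.608), at Lama5 and Adrm1 on chromosome 2 (0.608), and in a stretch of chromosome 17 with no gene within 5 kb (0.597). Among the members the highest were Myh3 region 4 (0.404, above 99.1% of those regions), Myh13 region 4 (0.286, above 94.6%) and Myh1 region 2 (0.280, above 94.2%). The lowest was Myh8 region 1 (−0.250, above 10.1%).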

How the data were processed

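The authors trimmed the reads with Trim Galore 0.3.7 and cutadapt 1.4.2, called regions with MACS2 and counted with featureCounts on mm10, per the submitters' processing notes. The aligner, the treatment of duplicate and multiply mapped reads, and the pooling of libraries for peak calls are not stated in these notes. All region names in the peak list carry the GermFree label. The authors deposited raw counts of reads per region and a peak list with 1 score per region, whose meaning is not given and which was not used in any comparison.

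Members were found from the peak list and RefSeq genes of GRCm38.p6. The genes and lists were chosen with earlier results of these data known. The rule for naming takes every region within 5 kb of the 6 genes, the regions of the muscle lists and of the 500 kb flanks that pass, and the 5 regions most correlated with the one called in the colon.

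Counts were fitted with edgeR 4.0.16 in R 4.3.3 (TMM scaling, filterByExpr, quasi-likelihood F test, two-sided, Benjamini-Hochberg over all regions tested, threshold 0.05). Mouse models were compared in each section alone and in counts summed over 3 small intestine sections per mouse. Sections were compared in 1 fit of 48 libraries in 8 groups, averaged over both models, with no term for the mouse. DESeq2 1.42.0, other scalings, filters and member rules, blocks and leaving out each mouse were alternatives. The code was tested on simulated data. The section libraries of 1 mouse deviated together only weakly (median r = 0.0287 over 72 pairs). The mouse is used as a block only in an alternative fit of the sections, because the labels name it. Mouse numbers do not pair the models (median r = −0.103 over 5 pairs). Intervals and floors cover counting error only where they rest on 1 library.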

Additional observations from a re-analysis of the deposited data

Results flagged for a closer look

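Of 192 groups (24 members in 8 groups of section and mouse model), 9 held a mouse that stood far from the others, and chance gives about 1 in 20. None of them is the colon of Myh2 region 4.

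In the embryonic gene, Myh3 region 2 stood at 15.3 CPM in ConvR jejunum mouse 1, the lowest, with the next at 20.3. Myh3 region 3 stood at 9.18 CPM in GermFree duodenum mouse 3 (next 6.73), and Myh3 region 4 at 31.8 CPM in GermFree jejunum mouse 3 (next 24.2).

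Among the fast adult genes, Myh2 region 1, over the start site, stood at 17.8 CPM in GermFree duodenum mouse 7 (next 13.7) and at 15.2 CPM in ConvR ileum mouse 1 (next 10). Myh2 region 2 stood at 13.7 CPM in GermFree jejunum mouse 1 (next 9.16) and at 19.2 CPM in ConvR jejunum mouse 4 (next 11.3). Myh1 region 1 stood at 33.0 CPM in GermFree jejunum mouse 3 (next 26.2), the same library as the high Myh3 region 4. In the perinatal gene, Myh8 region 2 stood at 15.5 CPM in ConvR colon mouse 3, the lowest, with the next at 21.3.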

How the results depend on the processing

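Member calls in the small intestine comparisons of the models, in the sum and along the small intestine stayed at 0 under the alternatives run (22 to 24 each: DESeq2, other scalings and filters, autosomes only, other member rules, blocks, leaving out 1 mouse). In the colon against the other sections the 0 became 2 in GermFree mice alone (2.92% of all regions called; Myh2 region 4, whose colon libraries chose it, and Myh1 region 1 at 0.30, adjusted p = 0.0462 by edgeR) and 2 with the mouse as a replicate block (3.78% of all regions). It ran from 0 to 1 when 1 mouse was left out. The fits that gave 1 were those without ConvR mouse 3, GermFree mouse 3 or GermFree mouse 5, with 4.04%, 2.72% and 1.99% of all regions called. That 1, and 1 of the 2 with the block, was Myh13 region 4, which passed the count filter mainly through the other sections. The block changed no other member call. The cause was not tested.

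The sign of small differences at Myh2 region 4 changed. In the duodenum it was 0.002 with the title code as a block and from −0.155 to 0.008 without 1 mouse. In the ileum it was 0.003 with that block and 0.022 with the mouse number as a replicate block, although mouse numbers do not pair the models. Ileum against duodenum ran from −0.012 to 0.102 without 1 mouse, and the colon contrast was 0.133 in ConvR mice alone. Myh2 region 1 turned to −0.057 in that contrast in GermFree mice alone, and Myh3 region 5 to −0.052 in ileum against duodenum in ConvR mice alone.

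Counts over all regions moved more. DESeq2 called 221 in the duodenum, 147 in the jejunum, 164 in the ileum and 1375 in the colon contrast, where edgeR called 349, 281, 312 and 2295. Autosomes alone gave edgeR 195, 122, 158, 242 in the sum (415 with all chromosomes) and 221 in the colon comparison of the models (402). Fitted with all 48 libraries, the jejunum gave 179. Leaving out 1 mouse moved the colon contrast from 728 (without ConvR mouse 5) to 3869 (without ConvR mouse 3), with 1378, 1526 and 1156 without ConvR mouse 1, 2 or 4 and 1074 without GermFree mouse 4. The mouse as a replicate block gave 3627, and ConvR mice alone gave 0. The 2 called in ileum against duodenum became 0 with DESeq2, and the 0 in jejunum against duodenum became 15 with that block.

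Members had median counts of 8 to 64 reads, which limits single sections to large differences. The peak names carry the GermFree label, and what that means for the region list was not tested.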
